A study of Mus musculus with 8 samples.

Results

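The mesothelial genes Msln, Upk3b, Upk1b, Lrrn4, Wt1 and Gpm6a were examined with the 4 simple-epithelial keratins Krt7, Krt8, Krt18 and Krt19 in whole aortas. These 10 genes were chosen by symbol, as markers of the mesothelium and the keratins of simple epithelia, from a table of 23420 genes. All 10 were found once, and all 10 averaged at least 10 normalised reads, the minimum for testing, as did 14931 genes in all. Both groups were ApoE-/- recipient mice, lethally irradiated and then given fetal liver cells from ApoE-/- donors, so that every recipient and every donor cell lacked ApoE. Donors of the Ntn1-/- → ApoE-/- group (written Ntn1-/-, n = 4) lacked Ntn1, which encodes the guidance cue netrin-1. Donors of the WT → ApoE-/- group (written WT, n = 4) were Ntn1+/+. All 8 mice then received angiotensin II for 28 days, a treatment that produces abdominal aortic aneurysms in ApoE-/- mice. The question asked of each gene was whether its level in the aorta differed with the Ntn1 genotype of the transplanted blood-forming cells.

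Only transplanted cells and their progeny lacked Ntn1, and the vessel wall of the recipients kept an intact gene. Ntn1 itself gave 7923.3 ± 2419.4 normalised reads in Ntn1-/- aortas and 7564.2 ± 1697.9 in WT aortas (mean ± SD, n = 4), so it gave no check of the labels. Libraries held 19879329 to 28202931 reads in genes. A normalised read is a read count divided by a size factor that puts libraries of different depth on one scale. The tissue matched its label in that the smooth muscle actin gene Acta2 ranged from 148233.7 to 392762.7 normalised reads. Libraries of one group differed in marker genes of tissues around the aorta. The mean log2 level of 16 liver genes, relative to all libraries, was 1.64, 1.78 and 2.32 in WT replicates A, C and D but -1.51 in WT replicate B, and ran from -2.02 to 0.08 in the Ntn1-/- group. No gene of the 14931 tested passed the main test between groups, limma on log2(normalised reads + 1) with Benjamini-Hochberg adjustment and a threshold of 0.05 (0%, smallest adjusted p = 0.248), while 2333 genes had an unadjusted p under 0.05.

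Mesothelium is a single sheet of flat cells that covers the organs and walls of the body cavities, and its cells keep an epithelial keratin skeleton although they arise from mesoderm. Keratins polymerise as pairs of a type II chain (Krt7, Krt8) and a type I chain (Krt18, Krt19), and Krt8 with Krt18 is the usual pair of simple epithelia, including hepatocytes. Msln and Upk3b are surface proteins by which mesothelial cells are commonly recognised. In bulk tissue, fewer cells of a type and less RNA per cell cannot be told apart.

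Krt8 and Krt18 lie next to each other on chromosome 15 of mm9, the build to which the reads were aligned. Krt8 occupies chr15:101827142-101834773 on the minus strand and Krt18 chr15:101858647-101862457 on the plus strand, so that they point away from each other with 23873 bases between their starts. Krt7 lies on the same chromosome at chr15:101241474-101260744. Msln is at chr17:25885559-25891272, Upk3b at chr5:136514366-136521173, Upk1b at chr16:38773297-38800316 and Krt19 at chr11:100002124-100009979. Lrrn4 (chr2:132694041-132706627) and Wt1 (chr2:104966686-105013773) share a chromosome, and Gpm6a is at chr8:56040081-56146231. None of the 10 overlapped another annotated gene. The 250 bases before the start are shown for this pair, whose levels did not move together, and for Upk3b and Lrrn4, whose levels did. They are RefSeq sequences of GRCm38.p6, a different build from the one above, written 5′ to 3′ on the strand of the gene. Capitals mark matches on either strand to 5 short motifs. These were the core promoter letters TATAAA, the GC box written as GGGCGG, the TEAD factor motif CATTCC, the AP-1 motif TGANTCA (N is any base) and the motif of GATA family transcription factors, read as AGATAA.
Krt8 (chr15:102004343-102004592, - strand): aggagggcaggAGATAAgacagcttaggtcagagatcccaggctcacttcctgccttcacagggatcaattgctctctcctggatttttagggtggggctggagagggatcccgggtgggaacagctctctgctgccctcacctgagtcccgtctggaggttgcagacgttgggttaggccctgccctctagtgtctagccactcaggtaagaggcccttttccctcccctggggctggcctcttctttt
Krt18 (chr15:102027966-102028215, + strand): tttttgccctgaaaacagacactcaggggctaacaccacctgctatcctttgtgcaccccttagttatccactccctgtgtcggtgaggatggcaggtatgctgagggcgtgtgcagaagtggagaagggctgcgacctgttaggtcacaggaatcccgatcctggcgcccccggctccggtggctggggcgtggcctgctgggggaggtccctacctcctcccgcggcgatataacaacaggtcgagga
Upk3b (chr5:136038246-136038495, + strand): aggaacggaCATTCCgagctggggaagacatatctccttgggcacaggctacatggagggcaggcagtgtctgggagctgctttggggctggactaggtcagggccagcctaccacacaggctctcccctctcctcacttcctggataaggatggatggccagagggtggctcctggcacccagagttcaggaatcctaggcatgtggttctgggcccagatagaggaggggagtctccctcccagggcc
Lrrn4 (chr2:132880863-132881112, - strand): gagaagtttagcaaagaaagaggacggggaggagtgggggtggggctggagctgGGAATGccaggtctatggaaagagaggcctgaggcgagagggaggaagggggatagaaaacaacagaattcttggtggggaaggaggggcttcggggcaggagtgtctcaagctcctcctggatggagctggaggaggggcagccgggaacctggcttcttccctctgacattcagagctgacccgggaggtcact
Krt8 held 1 AGATAA match, found in 9.99% of 32851 RefSeq promoters, and Krt18 held none of the 5 motifs. Upk3b and Lrrn4 each held 1 CATTCC match, read on the opposite strand in Lrrn4, as did 12.6% of promoters. Gpm6a, which did not vary with them over the 8 libraries, held 1 as well in its entry at chr8:54779184-54779433. Its other entry, at chr8:54954478-54954727, held no CATTCC match and 1 TATAAA match. Krt7, which did vary with Upk3b and Lrrn4, held no CATTCC match. The G and C content was 58.0% for Krt8, 60.4% for Krt18, 60.8% for Upk3b and 59.2% for Lrrn4, beside a median of 52.4% over all promoters. A match describes the letters alone. Of the 10 genes, 6 had an entry in the promoter table.

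Across the 10 genes, 9 had a lower mean log2 level in Ntn1-/- than in WT aortas and 1, Gpm6a, a higher one. The median log2 fold change (Ntn1-/- minus WT) was -0.65, beside -0.01 over all genes tested, 52.4% of which had a lower estimate. None of the 10 passed the test over all genes. At an unadjusted p under 0.05, 4 were lower (Krt8, Krt7, Upk1b and Msln) and 0 were higher, and 7.25% of all genes tested were lower by that criterion. In 2 of the 10, Krt8 and Krt7, every Ntn1-/- library lay below every WT library, which held for 5.34% of genes tested. These counts are not of independent genes, because 8 of the 10 varied together over the libraries (median Pearson r of 0.90). The median depended on Ntn1-/- replicate A, the lowest library for 9 of the 10 genes, and was -0.35 without it. Without that library the estimates were -0.29 for Upk3b, -0.24 for Lrrn4, -0.34 for Wt1, -0.63 for Upk1b, -0.36 for Krt19 and 0.55 for Gpm6a. The number of lower genes at an unadjusted p under 0.05 was 2 without Ntn1-/- replicate A (when Gpm6a was higher by the same criterion), 2 without WT replicate A and 2 without WT replicate C.

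**Figure D1:**
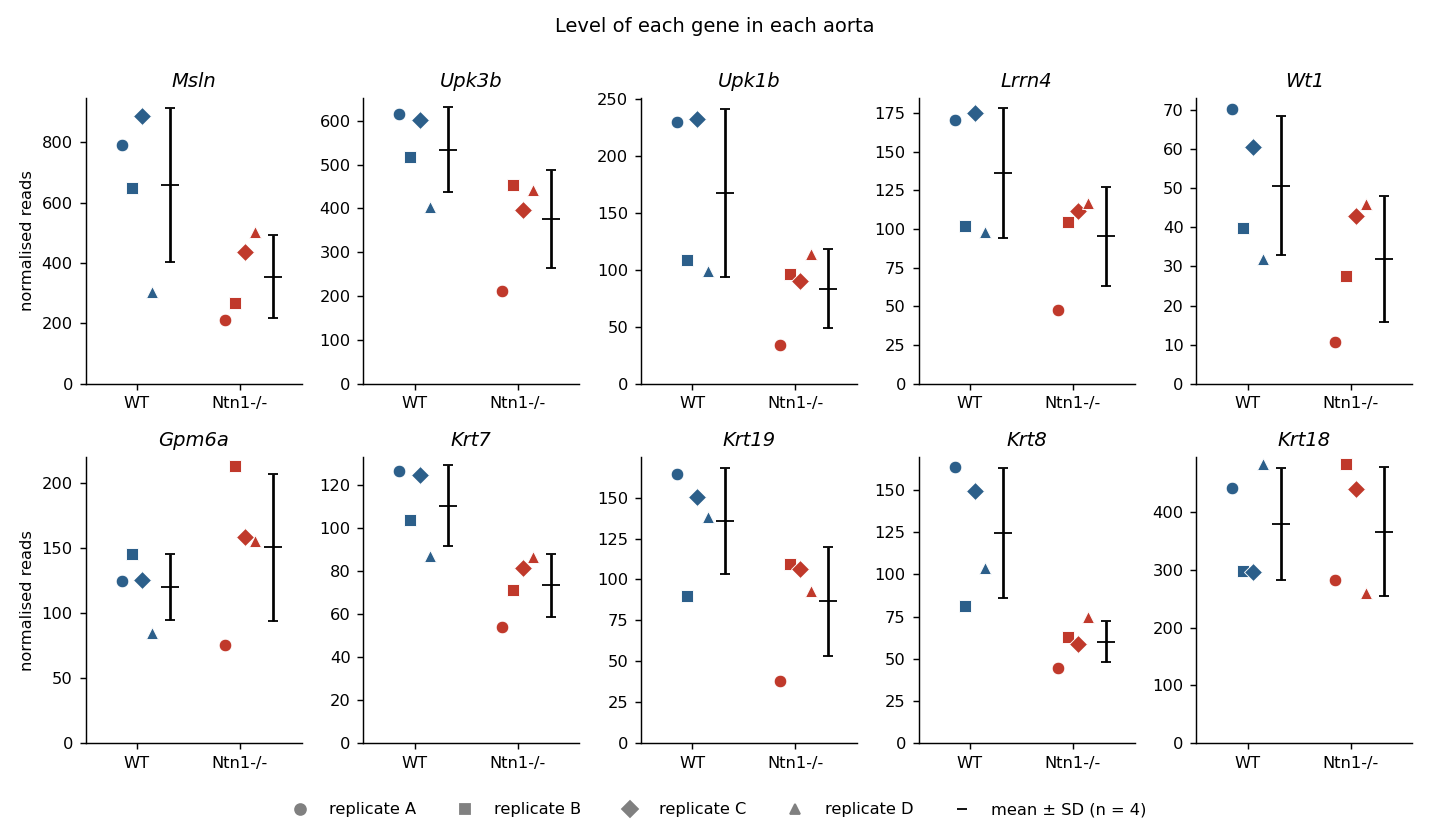
Level of the 10 genes in normalised reads (y axes, each from 0) in 4 WT (blue) and 4 Ntn1-/- (red) aortas, with the symbol giving the replicate letter and the bar the mean ± SD. Groups were apart for Krt7 and Krt8 and overlapped for the other 8, and Ntn1-/- replicate A was the lowest library for all but Krt18.

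Among the surface proteins, Msln, the glycoprotein mesothelin, gave 211.1, 268.1, 435.4 and 504.0 normalised reads in Ntn1-/- replicates A to D and 792.2, 647.9, 886.0 and 305.2 in WT replicates A to D. The groups overlapped through WT replicate D, which lay below 2 Ntn1-/- libraries. The Ntn1-/- mean was 354.7 ± 138 and the WT mean 657.8 ± 255 (SD, n = 4), or 53.9% of WT. The log2 fold change was -0.87 (SE 0.38), with an adjusted p of 0.319 by limma and an exact 2-sided permutation p of 0.114. The smallest p that 70 regroupings of 4 against 4 can give is 0.029. Over the 8 libraries, the mean of 5 cardiac muscle genes gave r = 0.86 with Msln (exact permutation p = 0.00985). The adjusted p was 0.246 over 150 relations with marker lists, rho was 0.79, and r without the 2 libraries farthest from the median was 0.82. Cardiac genes deviated by -0.84, -0.81, -0.82 and 0.73 log2 units in Ntn1-/- replicates A to D. In WT they gave 0.4, 0.72, 1.74 and -1.12. The relation was not confined to Msln. Cardiac genes gave r = 0.73 with Krt7, 0.68 with Upk1b, 0.65 with Upk3b, 0.63 with Lrrn4, 0.63 with Wt1 and 0.60 with Krt8. With Krt19, Gpm6a and Krt18 they gave 0.33, 0.21 and -0.60. Msln in turn gave r = 0.90 with other mesothelial genes, 0.82 with other keratins and 0.75 with fibroblast genes. The part of heart or other tissue in the Msln level was not tested.

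Upk3b, a uroplakin shared by urothelium and mesothelium, gave 212.7, 453.6, 396.6 and 441.6 normalised reads in Ntn1-/- and 614.8, 518.1, 601.6 and 403.0 in WT replicates A to D. WT replicate D again lay within the Ntn1-/- range, and replicate A set the low end. The log2 fold change was -0.55 (SE 0.25, limma adjusted p = 0.333, exact permutation p = 0.0857). Upk1b, a tetraspanin that partners uroplakins, gave 34.1, 96.0, 89.7 and 113.6 in Ntn1-/- and 229.1, 108.4, 232.0 and 99.0 in WT libraries. Here WT replicates A and C stood at about the same high level, while WT replicates B and D lay among the Ntn1-/- values. The log2 fold change of -1.01 (SE 0.43) was the lowest estimate of the 10, with a limma adjusted p of 0.312 and an exact permutation p of 0.114. It had the widest relative range as well, with 6.81-fold between its lowest and its highest library.

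Lrrn4, a leucine-rich repeat membrane protein, gave 47.4, 104.6, 111.6 and 117.1 normalised reads in Ntn1-/- and 170.4, 102.0, 174.9 and 97.8 in WT replicates A to D. Leaving aside replicate A, the Ntn1-/- values lay above WT replicates B and D and below WT replicates A and C. The log2 fold change was -0.54 (SE 0.33, limma adjusted p = 0.449, exact permutation p = 0.286). Gpm6a, a membrane glycoprotein that is abundant in neurons too, gave 75.6, 213.0, 158.4 and 155.3 in Ntn1-/- and 124.4, 145.5, 125.9 and 84.8 in WT libraries. It was the one gene of the 10 with a higher mean in Ntn1-/- aortas, 150.6 ± 56.6 against 120.2 ± 25.4 (SD, n = 4), and 3 Ntn1-/- libraries exceeded every WT library. The log2 fold change was 0.26 (SE 0.31, 95% interval -0.45 to 0.96, limma adjusted p = 0.718, exact permutation p = 0.457). Without Ntn1-/- replicate A it was 0.55 (unadjusted p = 0.0332), and without Ntn1-/- replicate B it was 0.061.

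Wt1, a zinc-finger transcription factor of mesothelial and kidney progenitor cells, was the least abundant of the 10. It gave 10.8, 27.6, 42.8 and 46.0 normalised reads in Ntn1-/- and 70.2, 39.9, 60.6 and 31.8 in WT replicates A to D. The value of Ntn1-/- replicate A rested on 13 reads (exact Poisson 95% interval 5.75 to 18.5, counting error only). The groups overlapped, and the log2 fold change was -0.77 (SE 0.46, limma adjusted p = 0.441, exact permutation p = 0.229).

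Of the type II keratins, Krt8 showed the smallest unadjusted p of the 10 genes. It gave 44.9, 62.8, 58.8 and 74.6 normalised reads in Ntn1-/- replicates A to D and 163.5, 81.6, 149.2 and 103.7 in WT replicates A to D. All 4 Ntn1-/- libraries lay below all 4 WT libraries, but the closest pair, Ntn1-/- replicate D and WT replicate B, rested on 86 and 88 reads, with exact Poisson 95% intervals of 59.7 to 92.1 and 65.4 to 100.5. The mean was 60.3 ± 12.3 in Ntn1-/- and 124.5 ± 38.3 in WT (SD, n = 4), or 48.4% of WT. The log2 fold change was -1.0 (SE 0.25, 95% interval -1.58 to -0.43, unadjusted p = 0.00351), and the limma adjusted p of 0.248 did not pass. The exact permutation p of 0.029 was the smallest that the design allows. Leaving out each library in turn gave log2 fold changes of -1.19 to -0.86 and unadjusted p from 0.00109 to 0.0123. On reads recovered from the normalised values, DESeq2 called Krt8 lower (-1.04, SE 0.28, adjusted p = 0.0175), as it did 1.48% of genes tested, and edgeR did not (adjusted p = 0.226). Krt8 was the only gene of the 10 that DESeq2 called.

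Of the marker lists, other mesothelial genes gave the highest r with Krt8, 0.87 (exact permutation p = 0.00513, adjusted 0.154 over 150 relations). Their rho was 0.88 (exact permutation p = 0.00724), and r without the 2 libraries farthest from the median was 0.62. Liver and kidney genes also moved beside Krt8, which hepatocytes express as well. The 3 WT libraries high in the liver genes (A, C and D) were the 3 highest in Krt8, and WT replicate B was the lowest WT library in both. In the Ntn1-/- group, however, replicate A was the highest in the liver genes and the lowest in Krt8. Over the 8 libraries, Krt8 and the mean of the liver genes gave r = 0.69 (exact permutation p = 0.0678) and rho = 0.50 (exact permutation p = 0.216), with r = 0.39 without the 2 libraries farthest from the median. Kidney genes gave r = 0.77 with Krt8 (exact permutation p = 0.0318), rho = 0.79 (exact permutation p = 0.0279) and r = 0.73 without the 2 farthest libraries, and r = 0.80 with Krt19 (exact permutation p = 0.00347). Of 10 kidney genes, only 3 reached the minimum (Lrp2, Aqp2 and Cdh16), so the kidney relations rest on these 3. All 3 had lower estimates in Ntn1-/- aortas (median log2 fold change -0.65). Umod, which defines the thick ascending limb, was at 0 in every library, and Slc12a1, Slc34a1 and Pax8 reached no more than 3.5 normalised reads. Slc12a3, also under the minimum, averaged 2.73 in Ntn1-/- and 0.814 in WT aortas. The summed level of the 10 kidney genes ran from 73.1 to 105.5 normalised reads in Ntn1-/- and from 111.2 to 159.7 in WT aortas. Over the 150 relations of the 10 genes with 15 marker lists, the adjusted p for r of Krt8 was 0.428 with liver and 0.378 with kidney genes, and no relation had one under 0.05. Krt18, the partner of Krt8 in hepatocytes, gave r = 0.18 with the liver genes (exact permutation p = 0.677, rho = 0.17). The part of liver or kidney RNA in the Krt8 difference was not tested. Of 12 general epithelial genes, 6 reached the minimum, with 5 lower and 1 higher estimates, none at an unadjusted p under 0.05. Cldn3 ranged from 192.6 to 433.0 normalised reads and Muc1 from 68.5 to 98.9, whereas Epcam ranged from 0 to 8.16 and Esrp1 and Grhl2 stayed at or under 1.85. Among the other uroplakins, Upk1a averaged 17.4 normalised reads in Ntn1-/- and 16.0 in WT aortas, and Upk2 and Upk3a were at 0 in every library.

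Krt7, the other type II chain, gave 54.0, 71.3, 81.7 and 86.8 normalised reads in Ntn1-/- and 126.7, 103.8, 124.7 and 87.2 in WT replicates A to D. The groups did not overlap, but Ntn1-/- replicate D and WT replicate D were separated by less than counting error (100 and 74 reads). The mean was 73.4 ± 14.5 in Ntn1-/- and 110.6 ± 18.7 in WT (SD, n = 4), a log2 fold change of -0.59 (SE 0.19, 95% interval -1.03 to -0.15, unadjusted p = 0.0146, limma adjusted p = 0.253). It ran from -0.70 to -0.45 when each library was left out in turn. Krt19, a type I chain, gave 38.2, 109.3, 106.6 and 92.8 in Ntn1-/- and 164.6, 89.9, 150.4 and 137.9 in WT libraries. Only WT replicate B lay within the Ntn1-/- range, and the log2 fold change was -0.71 (SE 0.35, limma adjusted p = 0.358, exact permutation p = 0.114), or -0.36 without Ntn1-/- replicate A.

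Krt18, the usual partner of Krt8, did not share its pattern. It gave 281.7, 482.1, 439.4 and 260.3 normalised reads in Ntn1-/- and 442.1, 298.5, 296.1 and 483.2 in WT replicates A to D. Each group had 2 libraries near the top of the range and 2 near the bottom, and the means of 365.9 ± 111 and 380.0 ± 96.9 (SD, n = 4) differed by less than the spread. The log2 fold change was -0.07 (SE 0.25, limma adjusted p = 0.919, exact permutation p = 0.600), and its 95% interval of -0.64 to 0.50 leaves room for a difference in either direction. The estimate was 0.076 without Ntn1-/- replicate D, 0.057 without WT replicate D, 0.038 without Ntn1-/- replicate A and 0.014 without WT replicate A. It was -0.22 without Ntn1-/- replicate B and -0.45 without Ntn1-/- replicates B and C.

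**Figure D2:**
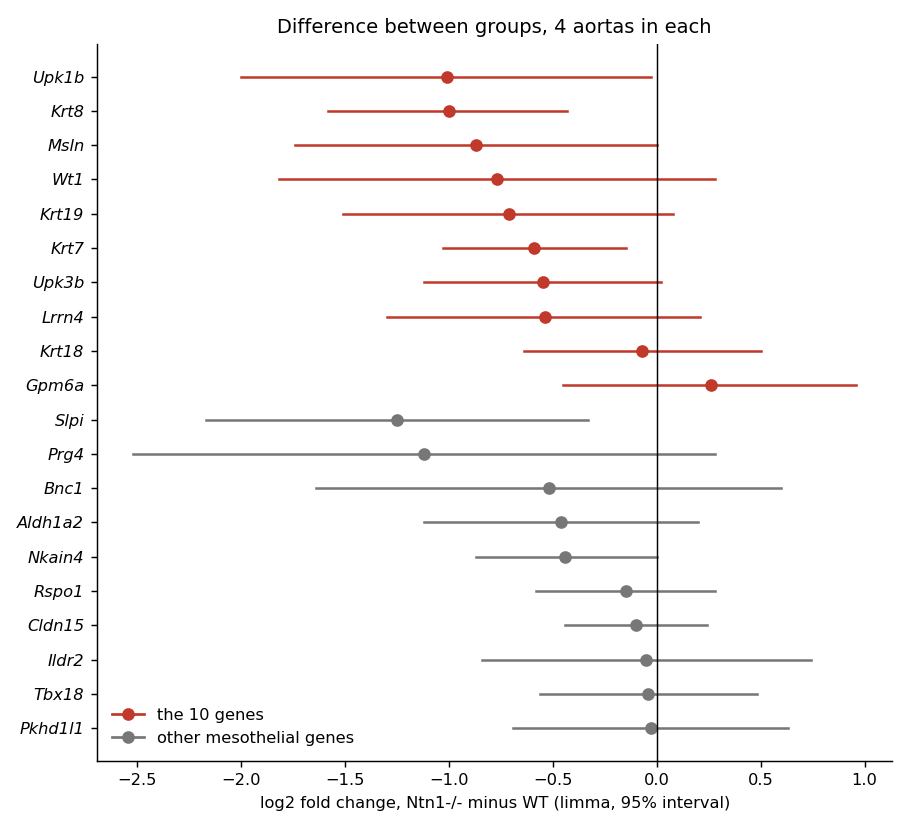
Log2 fold change (x axis, Ntn1-/- minus WT) with its 95% interval by limma for the 10 genes (red) and 10 other genes of mesothelium (grey), 4 aortas in each group. The intervals of Krt8, Krt7 and Upk1b lie below 0, that of Msln ends at 0 (unadjusted p = 0.0498), and Krt18 lies near 0.

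Among the 10, levels can be compared per length, as normalised reads per kilobase of exon. Krt18 had the highest mean over the 8 libraries (266 ± 69.2, SD), ahead of Msln (239 ± 118) and Upk3b (194 ± 54.9). The leading gene differed between the groups, with means of 261 for Krt18 and 168 for Msln in Ntn1-/- and of 271 for Krt18 and 311 for Msln in WT aortas. Krt18 exceeded Msln in 4 of 8 libraries and Msln exceeded Upk3b in 6 of 8. Upk3b exceeded Upk1b (70.8 ± 39.2) in all 8. Upk1b, Krt19 (60.0 ± 21.6), Krt8 (51.2 ± 24.0) and Gpm6a (40.6 ± 13.1) each exceeded the next gene in this order, down to Lrrn4 (31.1 ± 11.1), in only 4 or 5 of the 8 libraries. Lrrn4 exceeded Krt7 (13.1 ± 3.57), and Krt7 exceeded Wt1 (6.65 ± 3.02), in every library. Exon lengths were taken from GENCODE gene models for mm9, whereas the models used for counting are not given in the sources used here, and Krt7 and Wt1, the lowest per length, had the longest merged exons (7049 and 6195 bases).

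The ratio of Krt18 to Krt8 per kilobase shows their uneven levels within each aorta. It was 8.09, 9.9, 9.64 and 4.5 in Ntn1-/- replicates A to D and 3.49, 4.72, 2.56 and 6.01 in WT replicates A to D. Krt18 exceeded Krt8 per kilobase in every library, and 3 Ntn1-/- libraries had the 3 highest ratios. The log2 ratio was 0.95 higher in Ntn1-/- aortas (exact permutation p = 0.0857, 0.15 after adjustment over the 7 ratios compared, all chosen after the values were seen). For Gpm6a over Upk3b the ratio was 0.25, 0.33, 0.281 and 0.247 in Ntn1-/- and 0.142, 0.197, 0.147 and 0.148 in WT libraries. All 4 Ntn1-/- ratios exceeded all 4 WT ratios, by 0.81 on the log2 scale (exact permutation p = 0.029, 0.15 after the same adjustment). Gpm6a over Lrrn4 differed by the same amount, 0.81, but the groups overlapped (exact permutation p = 0.0857, adjusted 0.15). Krt8 over Msln differed by -0.15 (exact permutation p = 0.714).

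**Figure D3:**
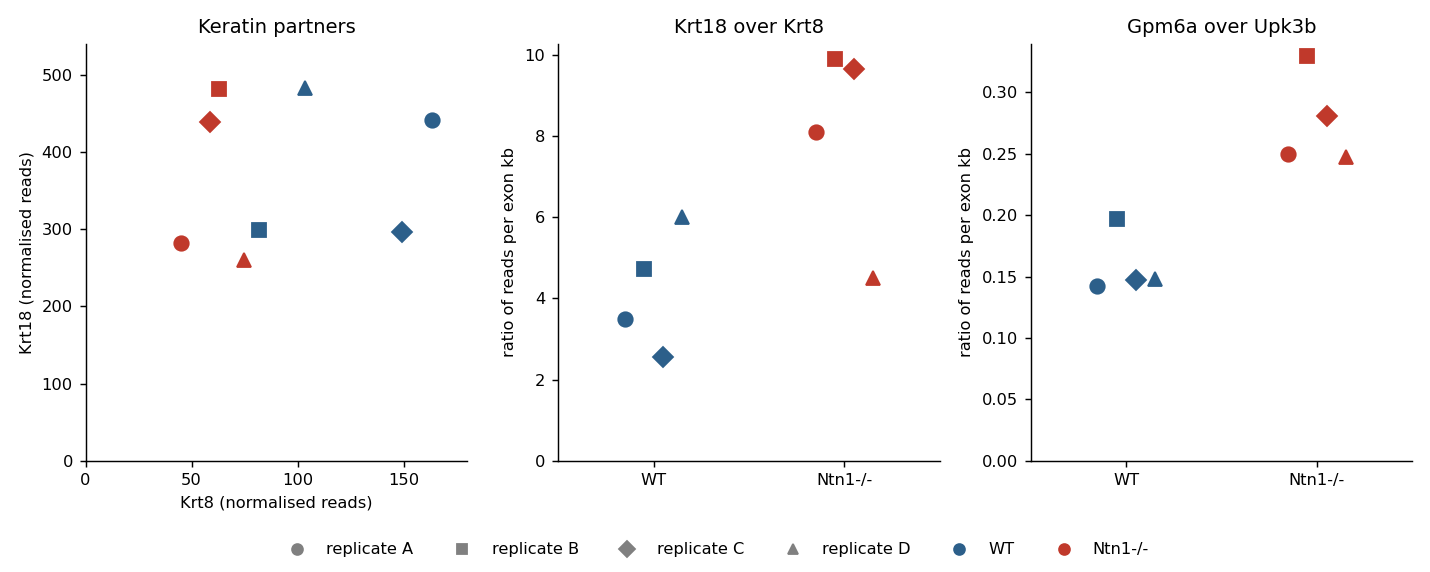
Krt18 against Krt8 in normalised reads (left) and the ratios Krt18 over Krt8 (middle) and Gpm6a over Upk3b (right), computed from normalised reads per kilobase of exon, in 4 WT (blue) and 4 Ntn1-/- (red) aortas with the symbol giving the replicate letter. Krt18 levels repeat across the range of Krt8, the Krt18 to Krt8 ratio overlaps between groups through Ntn1-/- replicate D, and the Gpm6a to Upk3b ratio does not overlap.

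Over the 8 libraries, 8 of the genes varied together and 2 did not. The 28 pairs among Msln, Upk3b, Upk1b, Lrrn4, Wt1, Krt7, Krt8 and Krt19 had Pearson r of log2 levels from 0.64 to 0.98, with a median of 0.90, and rho from 0.52 to 0.95. By exact permutation with adjustment over all 45 pairs, 27 of the 28 passed 0.05 for r and 7 for rho. The exception for r was Krt19 with Msln. Upk1b and Lrrn4 gave the highest r, 0.98. Deviations from the group means gave r from 0.43 to 0.99, so the genes varied together within the groups as well as between them. The relation rested partly on the extreme libraries, Ntn1-/- replicate A at the low end and WT replicates A and C at the high end. Without the 2 libraries farthest from the median, r ran from 0.07 to 0.93 (median 0.73), and 23 of the 28 pairs kept an r of at least 0.5.

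Krt18 correlated with none of the other 9 genes after adjustment (r from -0.21 to 0.51). With Krt8 it gave r = 0.15 (exact permutation p = 0.708, adjusted 0.796) and rho = 0.29 (exact permutation p = 0.501), and r = 0.26 without the 2 farthest libraries. Of the marker lists, 6 genes of skeletal muscle gave the highest r with Krt18 (0.85, exact permutation p = 0.0177, adjusted 0.332 over 150 relations, rho = 0.71 with p = 0.0576), and smooth muscle genes gave r = 0.74 and rho = 0.76 (exact permutation p = 0.0341 and 0.0368). The mean of the skeletal muscle genes deviated by 3.11 and 3.09 log2 units in Ntn1-/- replicates B and C, where Krt18 was high, and by -2.55 and -1.72 in replicates A and D, where it was low. In WT the deviations were 1.24, -1.80, -1.37 and -0.01 in replicates A to D. Other lists moved opposite to Krt18. Fibroblast genes gave r = -0.74 and rho = -0.60 with it (exact permutation p = 0.0372 and 0.132). Macrophage genes gave r = -0.67 and rho = -0.55 (exact permutation p = 0.0515 and 0.171). What part other tissue had in the Krt18 levels was not tested. Gpm6a gave r from -0.04 to 0.53 with the other 9, but its deviations from the group means gave 0.21 to 0.92, the highest with Upk3b. In Ntn1-/- replicate A, Gpm6a and the 8 co-varying genes were all at their lowest, and without the 2 farthest libraries r of Gpm6a with the other 9 ran from -0.57 to 0.69. The 13 genes of nerve had higher estimates in Ntn1-/- aortas (median log2 fold change 1.20), and their mean gave r = 0.64 with Gpm6a (exact permutation p = 0.0799, adjusted 0.428, rho = 0.60 with p = 0.132). Genes of endothelium, with 5 of 5 estimates higher (median 0.12), gave r = 0.67 and rho = 0.76 (exact permutation p = 0.0746 and 0.0368, adjusted 0.428 and 0.291), thymocyte genes r = 0.64 and rho = 0.62, and liver genes r = -0.68 and rho = -0.74. The part of these tissues in the Gpm6a level was not tested.

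**Figure D4:**
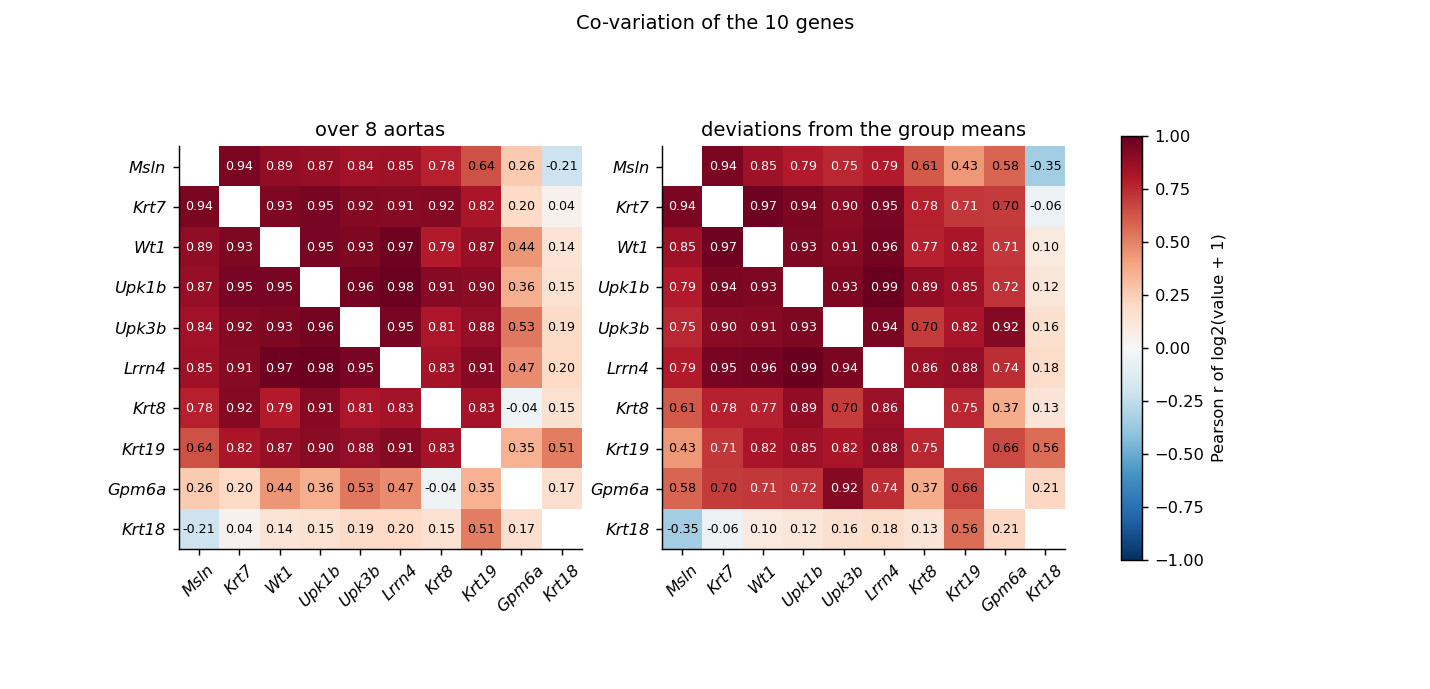
Pearson r of log2(normalised reads + 1) between each pair of the 10 genes (rows and columns) over the 8 aortas (left) and for deviations from the group means (right), with colour from -1 (blue) to 1 (red). The block of 8 genes has r of at least 0.64 on the left, where Krt18 stays at 0.51 or less. On the right, Gpm6a ranges from 0.21 with Krt18 and 0.37 with Krt8 to 0.92 with Upk3b.

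All genes were ranked by likeness to Upk3b and Msln, as r with the mean of their standardised log2 levels over 8 libraries. Of 14906 genes, Krt7 ranked 1 (r = 0.971), Upk1b ranked 5, Wt1 ranked 6 and Lrrn4 ranked 11. Krt8 followed at 126, Krt19 at 189, Gpm6a at 2318 and Krt18 at 7603 (r = -0.014). The other genes of the first 8 were Ccdc84, Ldb1, Fam46a, Hmgn2 and Trim12a, with r of at least 0.94, and the 4 at the opposite end were Eprs, Slc2a12, Intu and Rngtt (-0.941 to -0.924). With 8 libraries, high values of r arise among many genes. The same ranking by the mean of Krt8 and Krt18 was led by Pnrc1, Mepce, Plekho1 and Gemin5 (0.979 to 0.968), followed by Nelfe, Ankrd54, Eri3 and Gsk3a. Rsad1, Ankrd28, Wwp1 and Tmem184c stood last (-0.983 to -0.978). Of the 10, Krt19 ranked highest there, at 277 (r = 0.882), and Msln stood at 4247. Krt8 and Krt18 did not vary together, so this mean mixes 2 patterns. By likeness to Krt8 alone, Krt7 ranked 25, Upk1b 39 and Msln 400 of 14907 genes, with Krt18 at 5903 and Gpm6a at 8039. By likeness to Krt18 alone, Krt19 ranked highest of the 10, at 3130, with Krt8 at 6530 and Msln at 9603.

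A second list of mesothelial genes was read beside the 10. Of 12 listed genes, 11 were measured and 10 reached the minimum, and all 10 of those had lower estimates in Ntn1-/- aortas, with a median log2 fold change of -0.29. Of all genes tested, 52.4% had a lower estimate. None of this list passed the test over all genes. At an unadjusted p under 0.05, 2 were lower, as were 7.25% of all genes tested. The mean of this list gave r from 0.58 (Krt19) to 0.90 (Msln) with the 8 co-varying genes, but 0.01 with Gpm6a and -0.29 with Krt18. The highest rho was 0.98, with Msln (exact permutation p = 0.000397, adjusted 0.057 over 150 relations). Slpi, a secreted inhibitor of leukocyte proteases, gave 118.8, 130.3, 89.7 and 108.4 normalised reads in Ntn1-/- and 293.6, 121.4, 581.7 and 236.9 in WT replicates A to D. Its Ntn1-/- libraries were close together, and WT replicate B lay among them (log2 fold change -1.25, limma adjusted p = 0.253). Nkain4, a membrane protein, had a log2 fold change of -0.44 (limma adjusted p = 0.317). Bnc1, a zinc-finger protein, was lower by a similar amount but varied more (-0.52, adjusted p = 0.639). Aldh1a2, which makes retinoic acid, had -0.46 (adjusted p = 0.459) and Prg4, the lubricant lubricin, -1.12 (adjusted p = 0.411). Estimates for Cldn15 (-0.10), Rspo1 (-0.15), Ildr2 (-0.05), Tbx18 (-0.04) and Pkhd1l1 (-0.03) lay near 0. Which cells made the genes of this second list, those with lower estimates included, was not tested. Calb2, the calcium-binding protein calretinin of mesothelium and neurons, stayed below the minimum. It gave 4.16, 12.4, 20.9 and 7.81 normalised reads in Ntn1-/- aortas and 0, 0.927, 0 and 0 in WT replicates A to D, so that it was detected in all 4 Ntn1-/- libraries and in 1 WT library. It was not tested.

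Other keratins were read beside Krt7, Krt8, Krt18 and Krt19. Of 17 listed, 6 reached the minimum, of which 3 had higher and 3 lower estimates, and none had an unadjusted p under 0.05. Krt80 (log2 fold change 0.33), Krt222 (0.31) and Krt15 (0.91) had higher estimates, while Krt14 (-1.21, limma adjusted p = 0.330), Krt79 (-0.46, adjusted p = 0.364) and Krt10 (-0.20) had lower ones. The Krt15 estimate (SE 0.97, limma unadjusted p = 0.371) included a value of 0 in WT replicate D. WT replicates A to C gave 21.9, 14.8 and 17.5 normalised reads, within the Ntn1-/- range of 7.61 to 30.7. Krt14 gave its lowest value in Ntn1-/- replicate A and its highest in WT replicates A and C, as most of the 10 did, and in Krt79 all 4 Ntn1-/- libraries lay below the WT median. Krt5, the partner of Krt14 in stratified epithelia, reached no more than 10.8 normalised reads. Among the neighbours of the Krt8 and Krt18 pair, Eif4b (-0.03), Spryd3 (-0.05) and Tenc1 (0.20) lay near 0 or above it. Igfbp6, a binding protein of insulin-like growth factors, gave 2592.1 normalised reads on average in Ntn1-/- and 3515.5 in WT aortas, a log2 fold change of -0.44 (SE 0.10, unadjusted p = 0.00176, limma adjusted p = 0.248).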

How the data were processed

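RNA from the aortas of 8 mice was sequenced as single-end reads of 50 nt. Per the labels and methods, the authors aligned reads to mm9 with TopHat2 2.0.9, counted them with featureCounts and scaled them with DESeq2. The version, annotation and strand setting of the counting were not given in the sources used here. The deposited values (unit signal) are gene counts divided by the size factor of the library. Columns of the authors' fold changes and p-values, and their pathway lists, were not used.

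Whole reads came out for 100.0% of 187360 values (tolerance 0.001), and no pair of libraries was a duplicate (chi-square per degree of freedom at least 9.6). limma 3.58.1 (eBayes with a trend, R 4.3.3) was fitted to log2(value + 1) of 14931 genes with a mean of at least 10, without covariates, and checked on simulated data. A log2(value + 1) scale understates changes of low genes. edgeR 4.0.16 and DESeq2 1.42.0 on recovered reads were alternatives. Single values were tested by exact permutation, and p-values set a result against the variation between these libraries. The named genes were the 10 members, the genes of the mesothelial, uroplakin and keratin lists, up to 3 leading genes of other marker lists, the 8 most and 4 least alike genes, and the chromosomal neighbours. Further epithelial and kidney markers and Ntn1 were named after their values were seen. Members and lists were chosen with earlier results of these data known.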

Additional observations from a re-analysis of the deposited data

Results flagged for a closer look

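Each group of 4 values of the 10 genes and of 10 other mesothelial genes was examined for a library far from the other 3, on the scale of normalised reads and on the log2 scale of the tests. Of 40 groups, 2 had such a library on the log2 scale and 0 on the scale of normalised reads, where chance gives about 2.0. Both concerned Ntn1-/- replicate A, which gave 47.4 normalised reads of Lrrn4 while the others gave 104.6 to 117.1, and 38.2 of Krt19 while the others gave 92.8 to 109.3. With 4 values the criterion finds only a library very far from the rest.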

How the results depend on the processing

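Over 18 alternatives with at least 2 libraries in each group, Krt8 kept a lower estimate (-1.19 to -0.74), as did Krt7 (-0.70 to -0.41), Msln (-1.20 to -0.65), Upk1b (-1.30 to -0.63), Upk3b, Lrrn4, Wt1 and Krt19. DESeq2 called 1 of the 10 genes (Krt8) and 544 genes in all, where limma and edgeR called 0 (edgeR had 2461 genes at an unadjusted p under 0.05). Why the tools differ was not tested. The direction of Krt18 (-0.22 to 0.076 when each library was left out) reversed with CPM (0.004), without Ntn1-/- replicate A (0.038) or D (0.076), and without WT replicate A (0.014) or D (0.057). Without Ntn1-/- replicates B and C, Gpm6a reversed (-0.12) and Krt18 had its lowest estimate of the 18 alternatives, -0.45 (limma unadjusted p = 0.0915). Lower genes at an unadjusted p under 0.05 numbered 2 with CPM and 2 to 5 when each library was left out, where the median of the 10 ran from -0.75 to -0.35. A fit without WT replicates A, C and D, chosen after seeing the data for their liver genes, left WT replicate B alone, the lowest WT library in Krt8 and Krt19. It gave 0.24 for Krt18, -0.043 for Gpm6a and 0 lower genes at an unadjusted p under 0.05, which with 1 library in a group says nothing about stability. Libraries with the same letter did not deviate together (r from -0.304 to 0.151, beside -0.659 to 0.636 for different letters). This gave no sign that letters pair the mice, but differences as wide as these could hide a pairing. With the letter as a replicate block, 2 lower genes had an unadjusted p under 0.05. Counts were lowest for Wt1 (13 to 61 reads per library). They were low as well for Krt8 (54 to 142), Krt7 (65 to 112), Krt19 (46 to 143), Upk1b (41 to 199), Lrrn4 (57 to 150) and Gpm6a (72 to 224).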
